A study of Mus musculus with 12 samples.

Results

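Projection neurons of the cerebral cortex send their axons to other parts of the cortex or out of it, and their layer identity is set by a small group of transcription factors. The 9 genes followed here encode such factors, and each was found by its symbol as 1 of the 23983 entries of both tables. Upper layer factors were Cux1, Cux2 and Rorb, deep layer factors were Bcl11b, Fezf2, Tbr1 and Foxp2, and Neurod2 and Neurod6 are basic helix-loop-helix (bHLH) factors shared by glutamatergic neurons of all layers. The tables hold RNA of mouse brain at postnatal day 0 from 4 groups of 3 libraries each: vKO cortex, WT cortex, vKO subcortex and WT subcortex. The vKO mice carry Reck flex2/Δex1 and Tie2Cre. As the allele names read, one copy of Reck is floxed and the other already lacks an exon, and Tie2Cre is active in endothelial and blood lineages and not in neurons. WT mice are labelled as wild type with no allele named, all mice were of mixed strain, and the labels do not say whether a library is 1 animal.

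In the developing cortex deep layer neurons are born before upper layer neurons. Fezf2 and Bcl11b direct neurons that project to the brainstem and spinal cord, Tbr1 and Foxp2 mark neurons that project to the thalamus, Cux1 and Cux2 mark neurons that project within the cortex, and Rorb marks the layer that receives thalamic input. Several of these genes are used outside the cortex as well, Bcl11b and Foxp2 in striatal neurons and Rorb and Foxp2 in the thalamus. Reck acts on endothelial cells as a co-receptor of Wnt7 signals and is needed for vessels to grow into the brain, and the comparison of vKO with WT asks how the RNA of the tissue differs when that genotype is present.

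The deposited tables give 1 FPKM value (fragments per kilobase of transcript and 1000000 mapped fragments) per gene and group, with no value per library. No spread over libraries can therefore be given, the depth of the libraries is unknown, and neighbours in an order of levels cannot be tested against each other. The words rose and fell are kept for genes with a q-value under 0.05 in the table the authors deposited, which are also named as called. Ratios are log2((vKO FPKM + 1)/(WT FPKM + 1)), which understate the change of genes with low values. In these bulk samples fewer cells of a type and less RNA per cell cannot be told apart. Reck itself had 3.23 FPKM in vKO and 2.91 in WT cortex, and 3.49 in vKO and 2.37 in WT subcortex, and it was called in neither tissue (q = 0.639 and q = 0.333 in the authors' deposited table). Reads from all cells and all exons enter these values, which therefore cannot show whether the deletion took place. Xist, the RNA of the inactive X chromosome, had 18.6 FPKM in vKO and 0.0417 FPKM in WT cortex, and the Y-linked gene Eif2s3y had 15.8 FPKM in vKO and 30.4 in WT cortex. Both sexes thus contribute RNA to the vKO group, the mix of sexes differs between the groups, and its part in the results cannot be told apart from that of genotype.

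To show where the factors with the largest changes start, the 250 bases before the start site that the files' gene span ends on are given for the bHLH pair, of which Neurod6 rose and Neurod2 was not called, and for Rorb and Bcl11b, which had the lowest ratios. The sequences are RefSeq's on GRCm38.p6, the assembly behind mm10, read 5′ to 3′ on the minus strand, which carries all 4 genes. Capitals mark the E-box CANNTG, the core letters bound by bHLH proteins, which reads the same on both strands. Of the 9 factors 8 had an entry in this table, and Foxp2 had none.
Neurod6: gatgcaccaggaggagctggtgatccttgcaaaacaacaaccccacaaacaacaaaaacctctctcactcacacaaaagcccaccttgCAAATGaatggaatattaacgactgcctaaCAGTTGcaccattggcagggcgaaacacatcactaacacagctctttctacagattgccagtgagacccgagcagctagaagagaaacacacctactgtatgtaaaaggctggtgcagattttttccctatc
Neurod2: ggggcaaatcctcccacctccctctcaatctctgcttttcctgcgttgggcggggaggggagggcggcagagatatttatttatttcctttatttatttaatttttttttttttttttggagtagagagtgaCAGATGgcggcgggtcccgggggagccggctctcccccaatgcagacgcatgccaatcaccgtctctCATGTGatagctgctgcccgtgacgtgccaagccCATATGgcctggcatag
Rorb: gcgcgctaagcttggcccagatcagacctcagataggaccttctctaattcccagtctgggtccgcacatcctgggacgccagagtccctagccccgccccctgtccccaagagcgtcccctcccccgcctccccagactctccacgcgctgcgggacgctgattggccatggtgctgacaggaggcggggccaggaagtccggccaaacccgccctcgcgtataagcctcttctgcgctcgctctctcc
Bcl11b: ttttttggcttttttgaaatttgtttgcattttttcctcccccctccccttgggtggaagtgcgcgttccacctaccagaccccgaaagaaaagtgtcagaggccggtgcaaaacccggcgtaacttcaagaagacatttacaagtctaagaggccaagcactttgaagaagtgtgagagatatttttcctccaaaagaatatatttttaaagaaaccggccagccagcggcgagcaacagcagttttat
These windows lie at chr6:55681264-55681513 for Neurod6, chr11:98329646-98329895 for Neurod2, chr19:19111197-19111446 for Rorb and chr12:108003415-108003664 for Bcl11b. In the GENCODE M21 annotation the Bcl11b gene reaches to 108003602, so most of its window lies inside the gene as annotated there. That of Neurod2 reaches to 98329648, just inside its window. Neurod6 has 2 E-boxes there and Neurod2 has 3, of which one is CAGATG, while no such letters are in the windows of Rorb and Bcl11b. Of 32851 promoter windows of the same length, 66.2% hold at least 1 CANNTG, so having the letters does not set the pair apart. CAGATG, a form of CANNTG counted in both directions, is in 14.4% of the windows. Bases G and C make up 46.0% of the Neurod6 window, 52.8% of that of Neurod2, 66.0% of that of Rorb and 44.8% of that of Bcl11b, around a median of 52.4% over all windows.

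In vKO cortex 4 of the 9 factors fell and 1 rose, and the falls were shared by upper and deep layer factors. Rorb, Bcl11b, Cux2 and Foxp2 fell, Neurod6 rose, and Cux1, Fezf2, Tbr1 and Neurod2 were not called in the authors' deposited table. All 9 were tested there. Over all 13594 genes tested in cortex 11.3% were called lower and 8.15% higher in the authors' deposited table, and among the 9 factors the shares were 44.4% and 11.1%. The share of factors called higher is near that of all genes and is no result about them. Rorb, Cux2 and Bcl11b lie in the longest of 10 equal classes of transcript length. The authors' deposited table called 46.7% of the genes of that class lower, as set out below. The median ratio of the 9 factors was -0.37, beside 0.0037 over all genes tested.

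**Figure D1:**
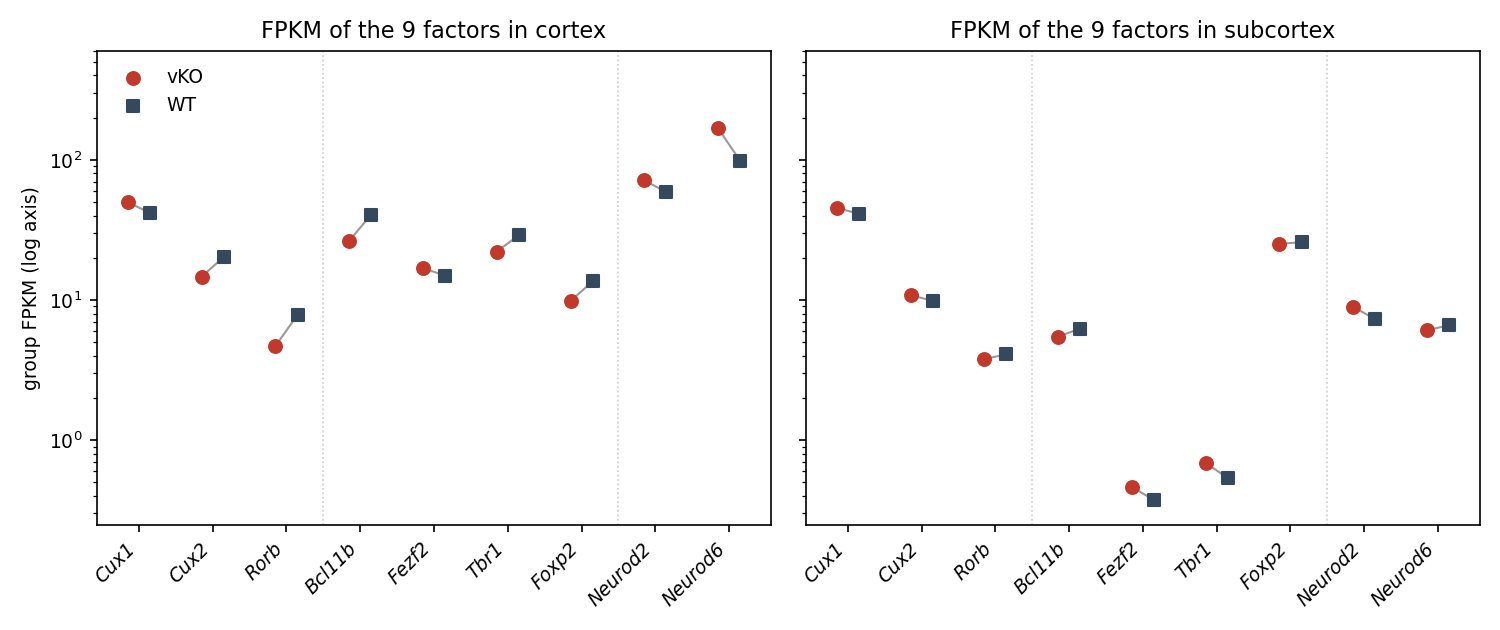
FPKM of each factor in vKO (circles) and WT (squares), in cortex (left) and subcortex (right), on a log axis. Each symbol is the authors' 1 value per group, so there are no error bars, and dotted lines part upper layer, deep layer and bHLH factors. Fezf2 and Tbr1 lie below 1 FPKM in both subcortex groups.

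Among upper layer factors, Rorb, a nuclear receptor (chromosome 19, 18930609 to 19111196, 10 exons in its longest coding transcript), had 4.70 FPKM in vKO cortex and 7.82 in WT cortex. This fall, a ratio of -0.63 with q = 0.000806 in the authors' deposited table, was the largest among the 9 factors with a pseudocount of 1 FPKM. With a pseudocount of 5 Rorb was at -0.40 and Bcl11b at -0.54. Rorb had the lowest level of the 9 in cortex of both genotypes. Cux2, a homeobox factor (chromosome 5, 121860216 to 122047825, 23 exons), had 14.7 FPKM in vKO and 20.2 in WT cortex, a ratio of -0.44 with q = 0.0186 in the authors' deposited table. Its relative Cux1 (chromosome 5, 136248135 to 136567490, 24 exons) had 49.9 FPKM in vKO and 41.7 in WT cortex, a ratio of 0.25 with q = 0.333 in the authors' deposited table. The Cux1 gene also gives rise to a Golgi protein from a shared set of first exons, and a value for the whole gene does not part the products. The level of Cux1 was 3.40 times that of Cux2 in vKO cortex and 2.06 times in WT cortex. The annotation places antisense genes over parts of Cux1 and Cux2, and no source used here says whether the authors' counting used strand, so the values of both are less certain than those of factors with no such partner.

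Among deep layer factors, Bcl11b, a zinc finger factor (chromosome 12, 107910403 to 108003414, 4 exons), had 26.5 FPKM in vKO and 40.7 in WT cortex, a ratio of -0.60 with q = 0.000806 in the authors' deposited table. Fezf2, the zinc finger factor that acts upstream of Bcl11b in the same neurons (chromosome 14, 12341892 to 12345865, 4 exons), had 16.9 FPKM in vKO and 14.9 in WT cortex. Its ratio was 0.17, with q = 0.477 in the authors' deposited table. The level of Bcl11b was thus 1.57 times that of Fezf2 in vKO cortex and 2.73 times in WT cortex. Foxp2, a forkhead factor (chromosome 6, 14901349 to 15441977, 19 exons), had 9.85 FPKM in vKO and 13.5 in WT cortex, a ratio of -0.42 with q = 0.0159 in the authors' deposited table. Tbr1, the T-box factor of corticothalamic neurons (chromosome 2, 61804453 to 61814113, 6 exons), had 22.2 FPKM in vKO and 29.0 in WT cortex. Its ratio was -0.37 and its q of 0.0528 in the authors' deposited table lies just above the threshold, so Tbr1 is not counted among the factors that fell.

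The bHLH factors stood highest of the 9 in cortex of both genotypes. Neurod6 (chromosome 6, 55677819 to 55681263, 2 exons) had 168 FPKM in vKO and 98.3 in WT cortex, which is 1.71 times the WT level, with a ratio of 0.77 and q = 0.000806 in the authors' deposited table. Neurod2 (chromosome 11, 98325417 to 98329645, 2 exons) had 71.3 FPKM in vKO and 58.9 in WT cortex, a ratio of 0.27 with q = 0.181 in the authors' deposited table. The level of Neurod6 was 2.35 times that of Neurod2 in vKO cortex and 1.67 times in WT cortex. In vKO cortex 98.5% of all entries had a lower FPKM than Neurod6, and in WT cortex 97.8%.

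Set side by side, upper and deep layer factors had nearly the same median ratio in cortex, -0.44 over the 3 upper layer factors and -0.40 over the 4 deep layer factors. The difference of the medians was -0.041, 0.30 without Rorb and 0.035 between the means in place of the medians, so it has no settled direction. Of the upper layer factors 2 fell, and of the deep layer factors 2 fell. With the deposited FPKM each group holds one of the 2 largest falls, Rorb and Bcl11b, and one factor with a ratio above 0 that was not called, Cux1 and Fezf2, of which Fezf2 is at -0.041 after rescaling to TPM. The summed FPKM of upper layer factors was 69.2 in vKO and 69.8 in WT cortex, where Cux1 makes up most of the sum. That of Cux2 and Rorb alone was 19.4 in vKO and 28.1 in WT cortex. The summed FPKM of deep layer factors was 75.4 in vKO and 98.2 in WT cortex.

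**Figure D2:**
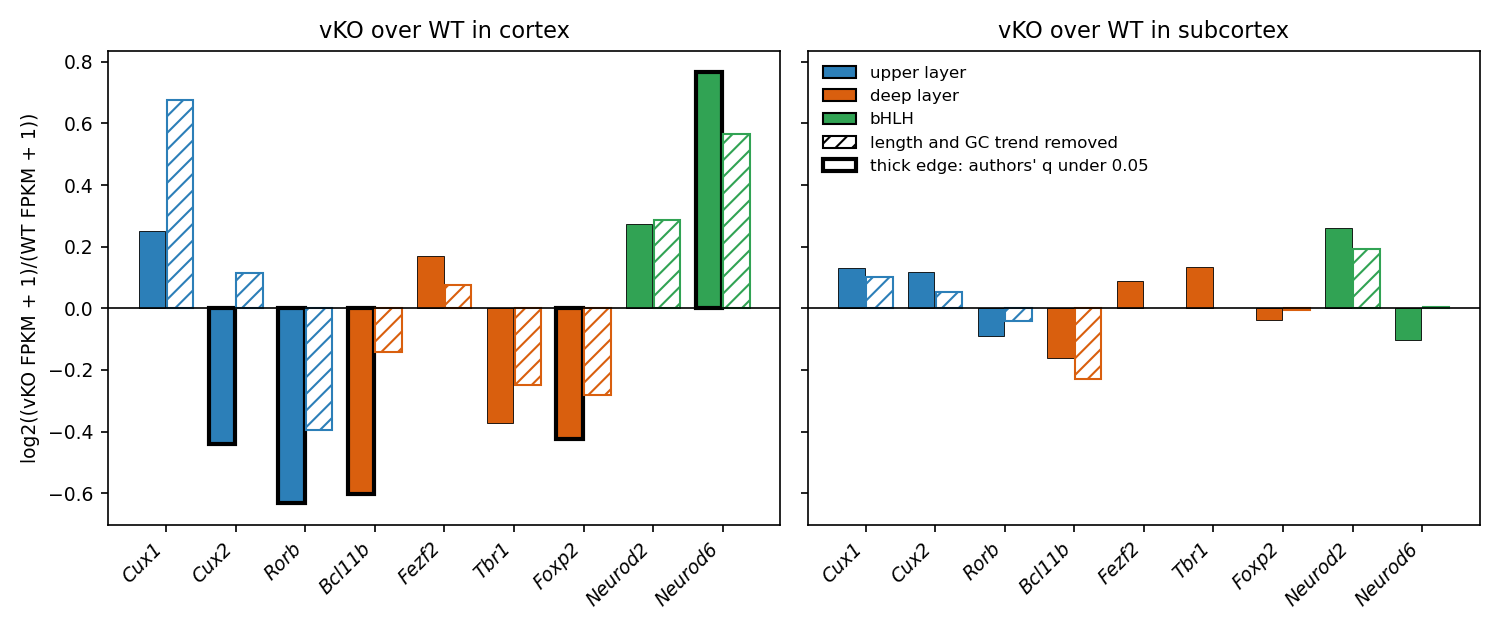
Ratio of vKO over WT, log2((vKO FPKM + 1)/(WT FPKM + 1)), of each factor in cortex (left) and subcortex (right). Filled bars use the deposited FPKM, hatched bars have the trend with transcript length and GC content removed, and thick edges mark q under 0.05 in the authors' deposited table. The 4 falls and the rise of Neurod6 stand in cortex, the hatched bar of Cux2 in cortex is above 0, and no subcortex bar has a thick edge.

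Transcript length moved with the ratios in cortex. Across 12935 genes with an annotated length the Spearman correlation of ratio with length was -0.55, given as a description over genes, which share libraries and are no replicates. In subcortex it was 0.022 across 13067 genes. Rorb, Cux2, Bcl11b and Cux1 all lie in the longest of 10 equal classes, with transcripts of 9293, 8784, 8111 and 12862 bases. In that class 46.7% of the genes were called lower and 0.541% higher in cortex in the authors' deposited table, with a median ratio of -0.35. Of these 4 factors 3 fell and Cux1 did not, and its ratio of 0.25 stands above the class median. Foxp2, with 6760 bases, lies in the next class, where 22.4% were called lower in the authors' deposited table. Neurod6, with 2150 bases, lies in the third class from the short end, where the authors' deposited table called 12.4% higher and the median ratio was 0.16. With the trend with length and GC content removed, the ratio was -0.40 for Rorb, -0.14 for Bcl11b, -0.28 for Foxp2 and 0.12 for Cux2, whose direction turned. It was 0.57 for Neurod6, 0.29 for Neurod2, 0.68 for Cux1, 0.077 for Fezf2 and -0.25 for Tbr1. The median of the 9 factors was then 0.077, and the upper layer median exceeded the deep layer median by 0.31. The part of length in the calls was not tested.

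**Figure D3:**
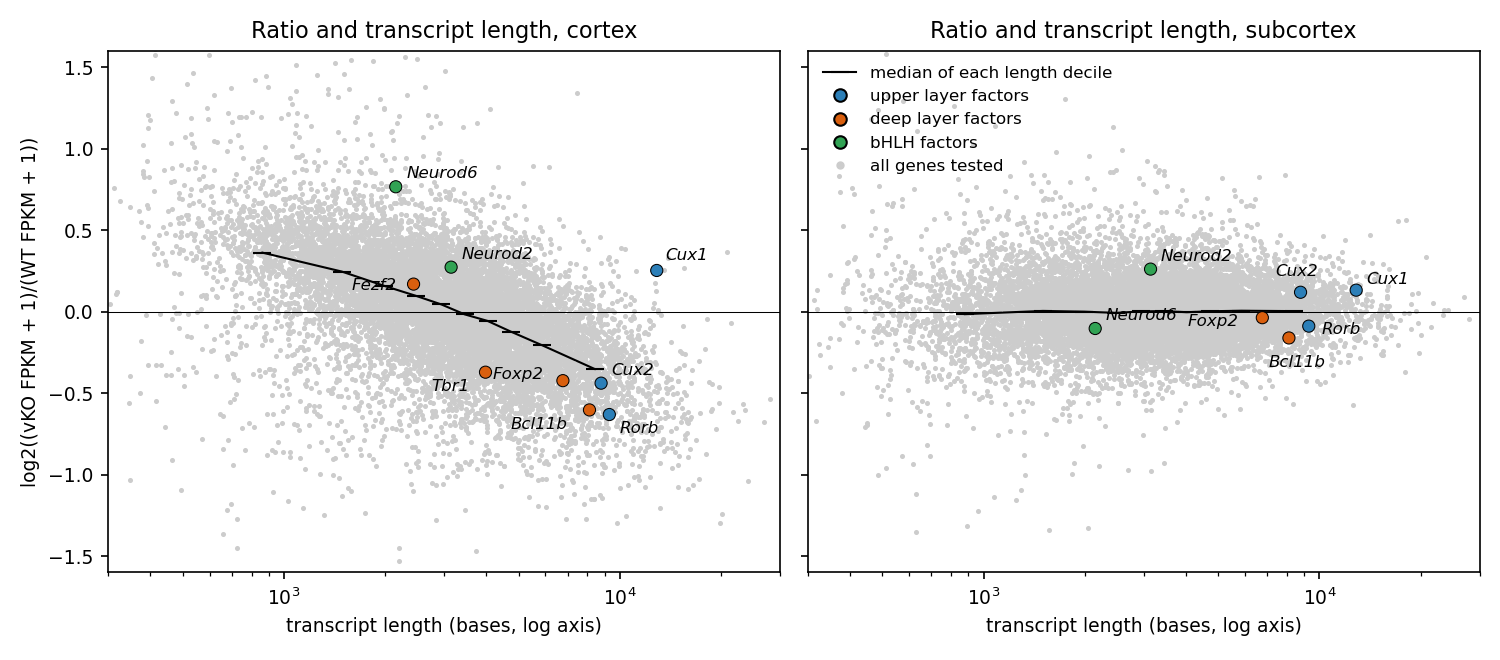
Ratio of vKO over WT against transcript length (log axis) for the genes with an annotated length that were tested in cortex (left) and subcortex (right). Lengths are of the longest coding transcript, or of the longest of any type for genes with none. Grey points are genes, the black line joins the medians of 10 equal classes of length, and coloured points are the tested factors. Genes outside the axis limits are not drawn. In cortex Rorb, Bcl11b and Cux2 lie at the long end below the line, and Cux1 and Neurod6 lie above it.

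In subcortex the authors' deposited table called none of the 7 factors it tested, where 0.451% of all 13735 genes tested were called higher and 0.262% lower. At an unadjusted p under 0.05 in the same table, from the authors' test with Cuffdiff, the count of factors was again 0, beside 6.31% of all genes in either direction. Fezf2 and Tbr1 were left untested by the authors, at 0.461 and 0.687 FPKM in vKO and 0.374 and 0.537 in WT. Neurod6, which rose in cortex, had 6.08 FPKM in vKO and 6.61 in WT subcortex, a ratio of -0.10. Rorb had 3.79 FPKM in vKO and 4.10 in WT subcortex, and Bcl11b had 5.48 in vKO and 6.24 in WT, with ratios of -0.089 and -0.16. Cux2 had 10.8 FPKM in vKO and 9.88 in WT subcortex, a ratio of 0.12. Foxp2 had 25.1 FPKM in vKO and 25.8 in WT, Cux1 45.3 in vKO and 41.3 in WT, and Neurod2 8.92 in vKO and 7.28 in WT subcortex. The ratio of Neurod2 was 0.26 there and 0.27 in cortex, and it was called in neither. The median ratio of the 9 factors in subcortex was 0.089, and -0.037 over the 7 tested. Whether a factor's ratio differs between cortex and subcortex could not be tested without values per library.

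Of the 9 factors 8 had a higher FPKM in cortex than in subcortex in both genotypes, and Foxp2 was the exception. Tbr1 had 32.3 times its subcortex level in vKO cortex and 54.0 times in WT cortex, Fezf2 36.6 times in vKO and 39.8 times in WT, and Neurod6 27.6 times in vKO and 14.9 times in WT. Neurod2 had 7.99 times its subcortex level in vKO cortex and 8.08 times in WT cortex, and Bcl11b 4.83 times in vKO and 6.52 times in WT. Cux2 had 1.36 times its subcortex level in vKO cortex and 2.05 times in WT cortex, and Rorb 1.24 times in vKO and 1.91 times in WT. Cux1 had nearly equal levels, 1.10 times the subcortex level in vKO cortex and 1.01 times in WT cortex. Foxp2 was lower in cortex than in subcortex, at 0.392 times the subcortex level in vKO and 0.525 times in WT. The tables of the tissues are separate comparisons, so these levels carry no test, and for Cux1 and Foxp2 a whole-tissue value is not a value of cortical projection neurons alone. The median log2((cortex FPKM + 1)/(subcortex FPKM + 1)) of the 9 factors was 2.08 in vKO and 2.53 in WT, beside -0.024 in vKO and -0.046 in WT over 13168 genes tested in both tissues.

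**Figure D4:**
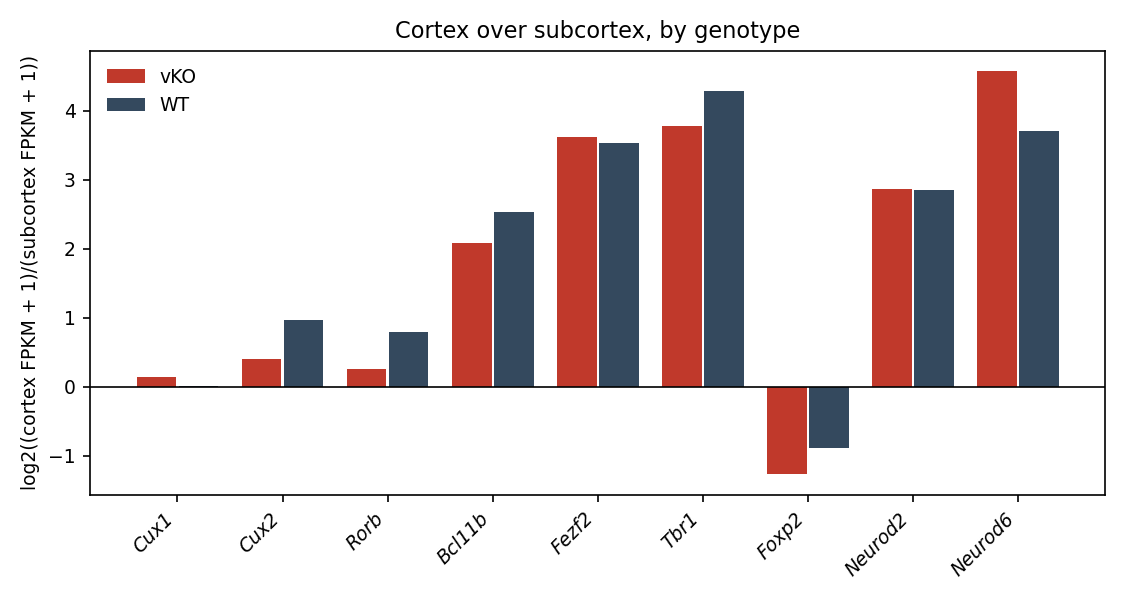
Cortex over subcortex, log2((cortex FPKM + 1)/(subcortex FPKM + 1)), of each factor in vKO (left bar) and WT (right bar), from the authors' 1 value per group. Fezf2, Tbr1, Neurod2 and Neurod6 stand above 2.5 in both genotypes, Cux1 near 0 and Foxp2 below 0.

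Other genes of the same neurons were called both ways in cortex. Over all genes tested there 11.3% were called lower and 8.15% higher in the authors' deposited table. The 2 and 1 genes called higher in the lists below are near that share and are no result about the lists. Of 12 other upper layer genes, all tested, 4 fell and 0 rose in the authors' deposited table, with a median ratio of 0.047. Among those that fell in the authors' deposited table were the netrin receptor gene Unc5d, with 8.20 FPKM in vKO and 11.7 in WT cortex (-0.46), the exchange factor gene Rasgrf2 (-0.45) and the semaphorin receptor gene Plxnd1 (-0.40). With the length and GC trend removed Unc5d was at -0.18, Rasgrf2 at -0.32 and Plxnd1 at 0.16, so the direction of Plxnd1 turned. Of 16 other deep layer and subplate genes 15 were tested, of which 3 fell and 2 rose in the authors' deposited table, with a median of -0.20. Etv1, an ETS factor of deep layer neurons, had 8.67 FPKM in vKO and 12.4 in WT cortex (-0.47), and Zfpm2, a zinc finger cofactor, fell as well (-0.44). Id2, an inhibitor of bHLH factors, had 161 FPKM in vKO and 105 in WT cortex (0.61), and Ctgf, a secreted matrix protein of the subplate and of vessels, had 8.41 in vKO and 4.98 in WT (0.65), and both rose in the authors' deposited table. Of 10 other glutamatergic neuron genes 9 were tested, of which 2 fell and 1 rose in the authors' deposited table, with a median of 0.045. Those that fell were Camk2a, a synaptic kinase (-0.80), and Nfix, a nuclear factor I gene (-0.60), and Neurod1, a bHLH relative of Neurod2 and Neurod6, rose to 1.37 times its WT level (0.42). With the length and GC trend removed Etv1 was at -0.43, Zfpm2 at -0.30, Camk2a at -0.60 and Nfix at -0.27. Id2 was then at 0.39 and Neurod1 at 0.26, and Ctgf had no annotated length. In subcortex 1 gene of these 3 lists was called in the authors' deposited table, Ctgf, at 5.18 FPKM in vKO and 2.89 in WT. Over all genes tested in subcortex 0.451% were called higher there.

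Some of the factors are shared with neighbouring regions, whose markers were counted in the same table. Over all genes tested in cortex it called 11.3% lower and 8.15% higher. Of 10 striatal genes, all tested, 3 fell and 0 rose in cortex in the authors' deposited table, with a median ratio of -0.34 and a summed level of 77.0 FPKM in vKO and 96.0 in WT. Rarb, a retinoic acid receptor, had 9.09 FPKM in vKO and 13.3 in WT cortex, and Penk, the proenkephalin gene, had 7.86 in vKO and 11.7 in WT cortex, and both fell in the authors' deposited table (-0.51 and -0.52). None of the 10 was listed at 0. In WT, Ppp1r1b, a phosphatase inhibitor of striatal neurons, stood 10.2 times as high in cortex as in subcortex. This was the highest such value among the 10 genes. In WT 6 of the 10 were higher in cortex than in subcortex and 4 lower, and in vKO 4 were higher and 6 lower. Their median log2((cortex FPKM + 1)/(subcortex FPKM + 1)) was -0.18 in vKO and 0.10 in WT. Bcl11b and Foxp2 are used in striatal neurons too, and the part of striatal tissue in their falls was not tested. Of 8 thalamic and midbrain genes 4 were tested in cortex and 3 of these fell in the authors' deposited table, with a median of -0.57 and a summed level of 8.06 FPKM in vKO and 15.3 in WT. Tcf7l2, a thalamic transcription factor, had 1.07 FPKM in vKO and 4.71 in WT cortex, and Lhx9 and Lef1 fell as well. The midbrain genes Pou4f1 and Gata3 stood at 0.00601 and 0.0132 FPKM in vKO cortex and at 0.131 and 0.0832 in WT cortex. Both were left untested by the authors and lay far below 1 FPKM in both genotypes. Otx2 of the same list was tested and not called, at 2.08 FPKM in vKO and 2.39 in WT cortex (q = 0.625 in the authors' deposited table). None of the 8 was listed at 0. In subcortex the summed level of the 8 was 97.7 FPKM in vKO and 103 in WT. Rorb and Foxp2 are used in the thalamus, and the part of thalamic tissue in their falls was not tested. The levels of Rorb and Foxp2 in subcortex, where thalamic genes are high, were 3.79 and 25.1 FPKM in vKO and 4.10 and 25.8 FPKM in WT.

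Genes of the cells that give rise to projection neurons were counted in the same bulk tissue. Of 7 tested intermediate progenitor and neurogenesis genes 5 rose and 0 fell in cortex in the authors' deposited table, with a median of 0.50. Over all genes tested in cortex 8.15% were called higher there. Btg2, which marks progenitors that make neurons, had 8.21 FPKM in vKO and 4.56 in WT cortex (0.73), and the proneural gene Neurog2 had 6.35 in vKO and 4.03 in WT (0.55). Of 9 radial glia genes 4 rose, 0 fell and 5 were not called in the authors' deposited table, with a median of 0.37, among them Emx2, a homeobox gene of the dorsal forebrain, at 4.79 FPKM in vKO and 2.59 in WT cortex (0.69). The part of progenitors in the rise of Neurod6 was not tested. Of 9 pan-neuronal genes 1 fell and 0 rose in the authors' deposited table, with a median of -0.11. This is near the 11.3% of all genes tested called lower and is no result about the list. The gene that fell was Dcx, the microtubule protein of young neurons (-0.67). Dcx lies in the longest of 10 classes of transcript length, of which 46.7% were called lower in the authors' deposited table. With the length and GC trend removed Dcx was at -0.43. The summed level of the 9 pan-neuronal genes was 2344 FPKM in vKO and 2195 in WT cortex, where Tubb3 makes up most of the sum. Tubb3, a tubulin gene, had 1377 FPKM in vKO and 1206 in WT cortex and was not called (q = 0.540 in the authors' deposited table). Of the 9 ratios 4 were above 0 and 5 below. Of 8 tested microglial and erythroid genes 6 rose and 0 fell in the authors' deposited table, with a median of 1.33. In subcortex no gene of these 4 lists, nor of the striatal and thalamic lists, was called in the authors' deposited table.

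**Figure D5:**
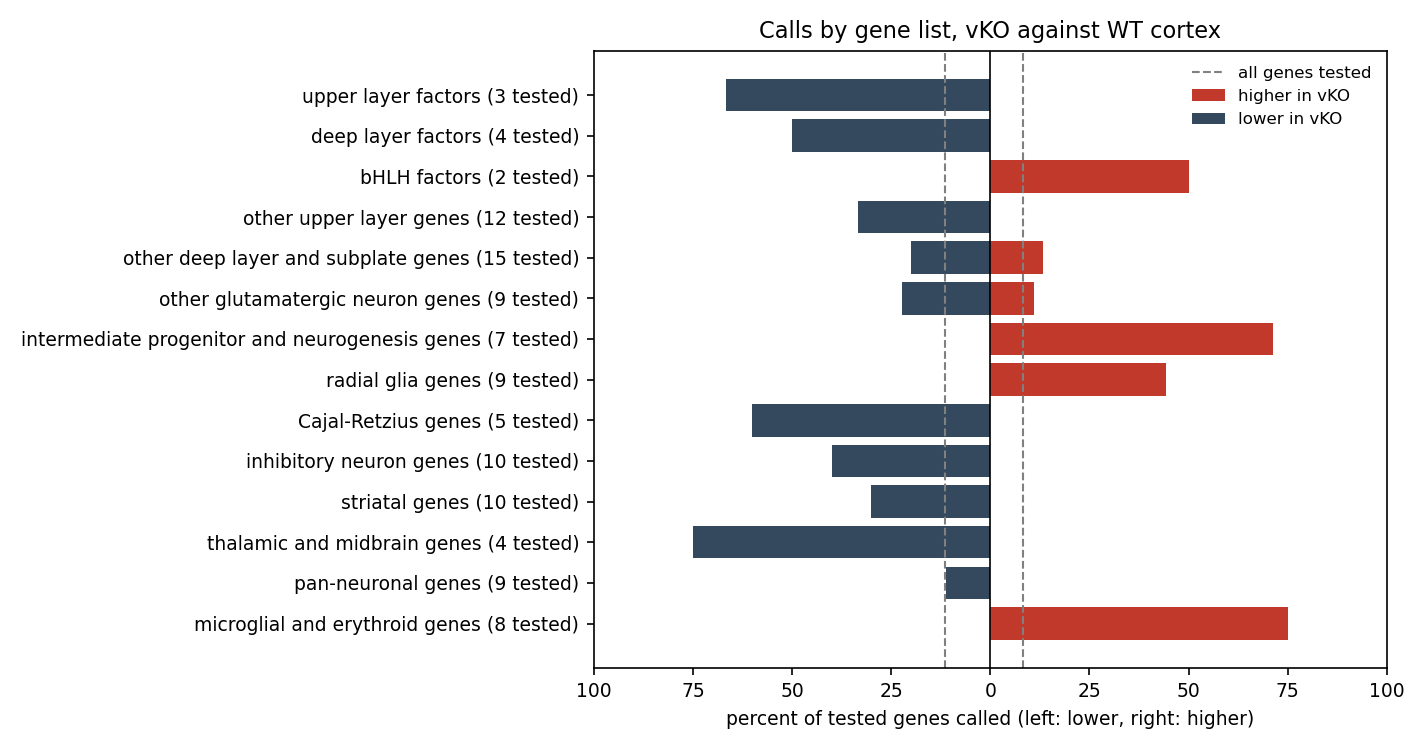
Share of the tested genes of each list that were called lower (left) and higher (right) in vKO against WT cortex in the authors' deposited table. Dashed lines are the shares over all genes tested, 11.3% lower and 8.15% higher. Upper and deep layer factors were called lower only, and intermediate progenitor and radial glia genes higher only.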

How the data were processed

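Total RNA of cortex and subcortex was made into stranded libraries, per the labels' protocols. The submitters' processing notes name mm10, HISAT2 2.0.1, Cufflinks 2.2.1 and Cuffdiff. The annotation and the use of strand are not given in the sources used here. The authors deposited 1 FPKM per gene and group, with the p-value and q-value of their own comparison of the groups, per the file headers. The groups W and M of the headers were read as WT and vKO. The depth of the libraries is unknown, and no test of samples was made here.

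From these values, with Python 3.11.15, pandas 2.3.3 and numpy 2.4.6, log2 ratios with a pseudocount of 1 FPKM were computed. Genes with a q-value under 0.05 count as called, as a share of all genes the authors tested. Coordinates are the files' own on mm10, with starts counted from 1. Exons, transcript lengths and GC content are of the longest protein-coding transcript of GENCODE M21 on the same build. For genes with no such transcript the longest of any type was used. Length and GC content were found for 95.2% of the genes tested in cortex and 95.1% in subcortex. To remove the trend with both, genes were put into 100 cells of like length and GC content and each cell's median ratio was taken off, a step tested on simulated data.

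The 9 factors and the 11 other lists (108 genes) were chosen with earlier results of these data known. Of each other list, up to 4 called genes with the lowest q per tissue are named, or else the 2 with the highest FPKM. Genes outside this rule (Ppp1r1b, Otx2, Pou4f1, Gata3 and Tubb3 in cortex) were chosen after their values were seen. Hbb-bt was not found and Hbb-bs was found in 2 entries, and both were left out. No gene was named by likeness of pattern, since 4 group values give no measure of it. Some genes of the other lists that this rule names are not reported here.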

Additional observations from a re-analysis of the deposited data

How the results depend on the processing

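No paired analysis was possible because the tables carry no value per replicate, and for the same reason leaving out each replicate was not run and no spread over libraries stands behind any value. At q under 0.01, 2 factors were lower in cortex instead of 4, and the same number held with a minimum of 1.5-fold, taken without a pseudocount. Over all genes in cortex 1534 were called at q under 0.01 and 1520 with the 1.5-fold minimum, instead of 2645, and in subcortex 0 instead of 98 at q under 0.01, since the lowest p-value in the authors' deposited table is 5e-05. Rescaling each group to a sum of 1000000 (TPM) moved the median of all genes tested in cortex to -0.20 and that of the factors to -0.60, and Cux1 then stood at 0.036 and Fezf2 at -0.041, while the 5 called factors kept their direction. Removal of the length and GC trend put the median of the factors in cortex at 0.077, the upper layer median above the deep layer median by 0.31, and Cux2 at 0.12, on the other side of 0. Without Rorb the difference between upper and deep layer medians was 0.30. Over the factors tested by the authors alone, an alternative added after the data were seen, the subcortex median was -0.037 and the difference between upper and deep layer medians 0.22. The median of cortex over subcortex was 2.25 in vKO and 2.69 in WT with a pseudocount of 0.1, 1.59 in vKO and 1.89 in WT with a pseudocount of 5, and 2.81 in WT after rescaling to TPM. A median was counted as moved when it shifted by 0.1 or more on the log2 scale.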

Other observations

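Of 5 tested genes of Cajal-Retzius neurons, the early neurons of the cortical surface, 3 fell and 0 rose in cortex in the authors' deposited table, with a median ratio of -0.46, beside 11.3% of all genes tested called lower. Reln, the secreted protein that guides migrating projection neurons, had 26.4 FPKM in vKO and 50.5 in WT cortex (-0.91). Ndnf, a secreted protein gene, had 4.36 in vKO and 7.82 in WT (-0.72). Trp73, the p53 relative of these neurons, had 1.18 in vKO and 1.99 in WT (-0.46). Reln and Ndnf lie in the longest of 10 classes of transcript length, of which 46.7% were called lower in the authors' deposited table. Trp73 lies in class 8 from the short end, of which 14.6% were called lower there. After the trend with length and GC content was taken off, Reln stood at -0.45, Ndnf at -0.48 and Trp73 at -0.23. The list median was then -0.23. The part of length in these falls was not tested. Of 10 inhibitory neuron genes 4 fell, 0 rose and 6 were not called in the authors' deposited table, with a median of -0.22. In subcortex the authors' deposited table called no gene of either list. Reln had 28.9 FPKM there in vKO and 22.2 in WT (p = 0.0375 and q = 0.727 in the authors' deposited table).

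Cux1 and Cux2 are both in the class of the longest transcripts and differ by 0.69 in their cortex ratios, 0.25 for Cux1 and -0.44 for Cux2, and by 0.56 after removal of the length and GC trend. The difference between them was not tested.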
